A study of Mus musculus with 2 samples.

Results

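Otx2, Otx1 and Crx are the 3 genes of the orthodenticle family of homeobox transcription factors in the mouse, and open chromatin around them was examined in embryonic retina. For each gene, the DNase-seq peaks that overlapped its body or the 150 kb on either side were taken. These windows held 151 of the 165269 peaks of replicate 1 and 161 of the 219308 peaks of replicate 2. The series has 1 group, whole retina of mouse embryos at embryonic day 14.5, strain B6NCrl, pooled male and female, with 2 biological replicates. They share a donor label but have biosample labels of their own, so the spread between them may be partly technical. No mutant, treatment, other age or other tissue belongs to the series, so no contrast could be tested. Values are given for replicate 1 and then replicate 2, and genome-wide values measured the same way stand beside them. The files hold no read numbers, so the sequencing depth is unknown.

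DNase-seq maps where DNase I cuts chromatin most readily, which is mostly at promoters, enhancers and insulators. The OTX and CRX homeodomains carry a lysine at the position that sets base preference and bind the core TAATCC. Otx2 commits retinal cells to the photoreceptor and later the bipolar fate, and it is also needed in the pigment epithelium. It activates Crx, which switches on the genes of phototransduction in rods and cones. Otx1 acts mainly in forebrain, inner ear and the ciliary region of the eye. At this age the retina holds dividing progenitors, newly born cones and other early neurons, and few rods.

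Sequences of the peaks on which the results turn are printed first, all from the plus strand of GRCm38 (mm10), 5′ to 3′. The first 4 lines show the strongest intergenic peak near Otx2 that both libraries shared, then Otx2 peaks that hold the OTX core. The next 2 show the strongest distal peak of Otx1 and an Otx1 peak with the core. The last 4 show the bases before the Crx start, the peak behind Crx, and 2 upstream peaks with the CTCF core. Capitals mark TAATCC, or GGATTA where it lies on the minus strand, and in the last 2 lines the CTCF core on either strand, which reads CCA, any 2 bases, AG, any 2 bases and GGC. Distances run from the 5′ end of each gene to the peak centre, and all 3 genes lie on the minus strand.
Otx2, 64.9 kb downstream, chr14:48608796-48608945: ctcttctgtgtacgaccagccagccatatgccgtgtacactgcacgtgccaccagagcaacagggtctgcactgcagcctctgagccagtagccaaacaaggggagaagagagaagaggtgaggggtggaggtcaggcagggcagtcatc
Otx2, 80.3 kb downstream, chr14:48593476-48593625: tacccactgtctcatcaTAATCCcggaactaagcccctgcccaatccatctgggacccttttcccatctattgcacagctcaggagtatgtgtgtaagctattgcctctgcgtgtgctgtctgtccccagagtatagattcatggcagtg
Otx2, 93.2 kb downstream, chr14:48580516-48580665: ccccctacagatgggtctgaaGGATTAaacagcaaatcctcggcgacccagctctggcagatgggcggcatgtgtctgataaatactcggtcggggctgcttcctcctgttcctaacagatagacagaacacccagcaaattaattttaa
Otx2, 64.5 kb upstream, chr14:48738256-48738405: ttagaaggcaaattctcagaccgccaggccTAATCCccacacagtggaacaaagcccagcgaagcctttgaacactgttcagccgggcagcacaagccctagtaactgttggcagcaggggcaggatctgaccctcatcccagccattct
Otx1, 74.5 kb upstream, chr11:22077356-22077505: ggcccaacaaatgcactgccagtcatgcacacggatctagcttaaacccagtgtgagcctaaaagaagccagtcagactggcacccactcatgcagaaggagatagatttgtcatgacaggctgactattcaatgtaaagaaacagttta
Otx1, 76.1 kb upstream, chr11:22078916-22079065: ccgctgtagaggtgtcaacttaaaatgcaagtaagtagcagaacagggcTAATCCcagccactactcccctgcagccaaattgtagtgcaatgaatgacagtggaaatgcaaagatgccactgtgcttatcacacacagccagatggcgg
Crx promoter, chr7:15879969-15880085: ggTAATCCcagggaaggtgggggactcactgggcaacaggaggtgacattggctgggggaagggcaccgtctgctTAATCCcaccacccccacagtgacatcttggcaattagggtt
Crx, 15.7 kb downstream, chr7:15864236-15864385: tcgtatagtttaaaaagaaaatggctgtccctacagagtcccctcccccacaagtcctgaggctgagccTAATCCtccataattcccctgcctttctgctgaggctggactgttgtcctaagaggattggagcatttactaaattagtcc
Crx, 32.4 kb upstream, chr7:15912276-15912425: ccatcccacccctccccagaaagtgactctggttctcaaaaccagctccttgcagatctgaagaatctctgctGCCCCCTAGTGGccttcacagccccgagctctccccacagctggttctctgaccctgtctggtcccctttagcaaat
Crx, 50.1 kb upstream, chr7:15930036-15930185: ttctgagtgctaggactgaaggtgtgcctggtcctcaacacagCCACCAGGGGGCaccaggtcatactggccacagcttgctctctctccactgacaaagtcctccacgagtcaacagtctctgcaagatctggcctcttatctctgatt

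Otx2 (ENSMUSG00000021848.16, chr14:48657677-48673819) had the densest window of the family, followed by Otx1 and then Crx. The Otx2 window held 70 and 83 peaks, or 22.1 and 26.3 peaks per 100 kb. Otx1 (ENSMUSG00000005917.15, chr11:21994764-22002897) had 46 and 51 peaks, or 14.9 and 16.6 per 100 kb. Crx (ENSMUSG00000041578.15, chr7:15865947-15879968) had 35 and 27 peaks, or 11.1 and 8.60 per 100 kb. In windows of 150 kb the order was the same in both libraries and the values of the 3 genes did not overlap. With 50 kb on either side Otx1 was denser than Otx2 in replicate 1, at 33.3 and 30.1 peaks per 100 kb, and less dense in replicate 2, at 32.4 and 43.1. As means the densities were 24.2 ± 2.91 at Otx2, 15.7 ± 1.15 at Otx1 and 9.87 ± 1.80 at Crx (SD, n = 2 each).

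Among the windows of 21938 protein-coding genes, whose median was 9.05 and 11.6 peaks per 100 kb, Otx2 was denser than 93.7% and 96.1%. Otx1 was denser than 78.5% and 74.6%. Crx was denser than 61.6% and 32.6%, so its side of the median differed between the libraries. Unlike the genome and the other members, Crx had fewer peaks in replicate 2 than in replicate 1. So did Rax, one of the comparison loci below, with 83 and 81 peaks. The 5 eye-field factor genes measured for comparison had 15.1 to 36.7 peaks per 100 kb in replicate 1 and 17.9 to 45.0 in replicate 2. Six3, which acts in eye-field and forebrain patterning, was the densest of them, and Lhx2, a LIM factor that the optic cup needs, was the sparsest. Otx2 lay below Pax6, Six3 and Six6 and above Lhx2 in both libraries. Rax, the retinal homeobox gene that starts eye formation, had 26.6 and 26.0, so that Otx2 was lower in replicate 1 and slightly higher in replicate 2.

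**Figure D1:**
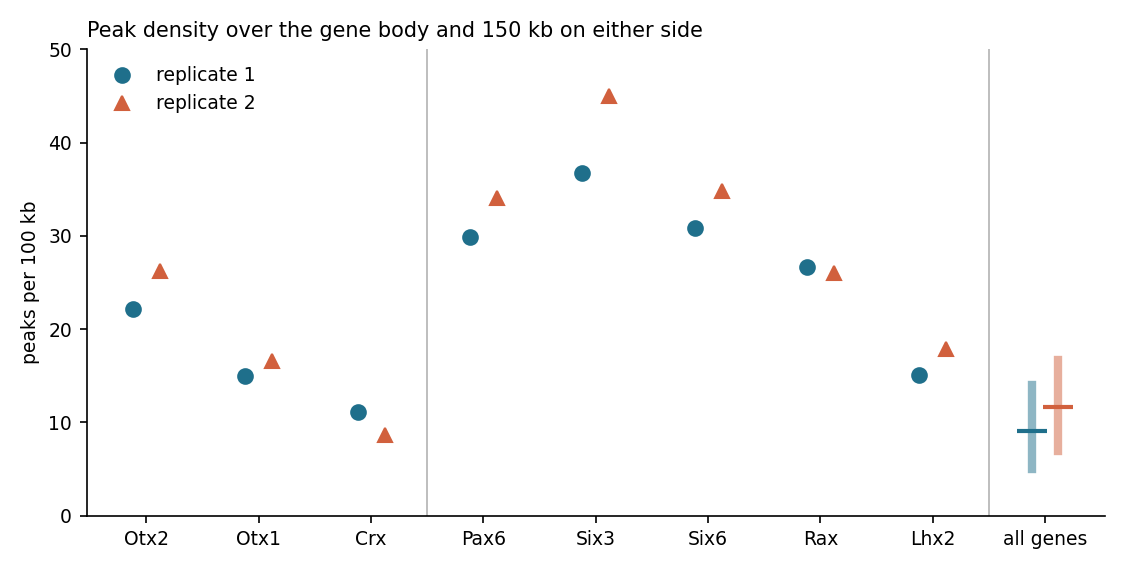
Peaks per 100 kb (vertical axis) over the gene body and 150 kb on either side, for the 3 family members, the 5 comparison loci and all protein-coding genes (horizontal axis). Points are single libraries, and for all genes the line is the median and the bar runs between the quartiles. Otx2 lies at 22.1 and 26.3, above the medians of 9.05 and 11.6, while Crx lies at 11.1 and 8.60.

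Peaks around Otx1 were packed near the gene, those around Otx2 ran along both flanks, and those around Crx lay almost wholly on its upstream side. At Otx1, 36 of 46 and 35 of 51 peaks (78.3% and 68.6%) lay within 50 kb of the gene, a part that makes up 35.1% of the window length. With the window cut to 50 kb on either side, Otx1 was denser than 98.1% and 96.9% of genes, and Otx2 than 96.9% and 99.2%. Hotspots, the broader stretches of cutting called by the authors, covered 82.4% and 84.2% of the 8.13 kb Otx1 body. They covered 38.3% and 56.1% of the Otx2 body and 1.24% and 1.78% of the Crx body.

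At Otx2, 35 of 70 and 50 of 83 peaks lay within 50 kb of the gene, and the flanks held several separate clusters. Upstream there were 21 and 27 peaks, in the body 17 and 23, and downstream 32 and 33. The long noncoding RNA Otx2os1, which starts inside Otx2 and runs away from it on the other strand, overlapped 26 and 35 of the window's peaks. The longest stretch without a peak in either library spanned 34.8 kb and began 93.7 kb downstream of the 5′ end. The widest hotspots in the window, 2371 and 4421 bp, lay over the internal promoters of Otx2 and held 5 and 10 peaks.

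At Crx, 31 of 35 and 24 of 27 peaks were upstream, 1 and 1 touched the gene body and 3 and 2 were downstream. Downstream of Crx lie Obox5 and Obox6, homeobox genes known for their activity in oocytes and early embryos, and neither had a promoter peak in either library. A stretch of 98.2 kb on that side held no peak in either library. It contains Obox5 and pseudogenes of Obox4, Ranbp2 and Gtpbp4, and whether reads could be placed uniquely there was not tested. The stretch is cut off by the window edge. The first peaks beyond this edge lay 26.6 and 298 kb outside it. Upstream lie Crxos, Selenow, Nop53 and Ehd2, whose strongest promoter peaks ranked 86.2, 92.1, 96.3 and 88.5 in replicate 1 and 92.5, 94.2, 97.8 and 91.8 in replicate 2. Bicra, a gene for a subunit of a chromatin remodelling complex, also has 3 starts upstream in the window. None of these had a peak within 1000 bp in either library. The 5′ end of Bicra, at 16047921, lies beyond the window end at 16029968, and whether it had a promoter peak is not reported here. Of the window's distal peaks 6 and 8 were nearest to Bicra. Of the 27 and 20 distal peaks of the window, 3 and 2 had Crx as their nearest protein-coding gene. At Otx2 it was 33 of 45 and 47 of 52, and at Otx1 35 of 39 and 41 of 45. Most distal peaks counted in the Crx window were thus nearer to another gene.

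**Figure D2:**
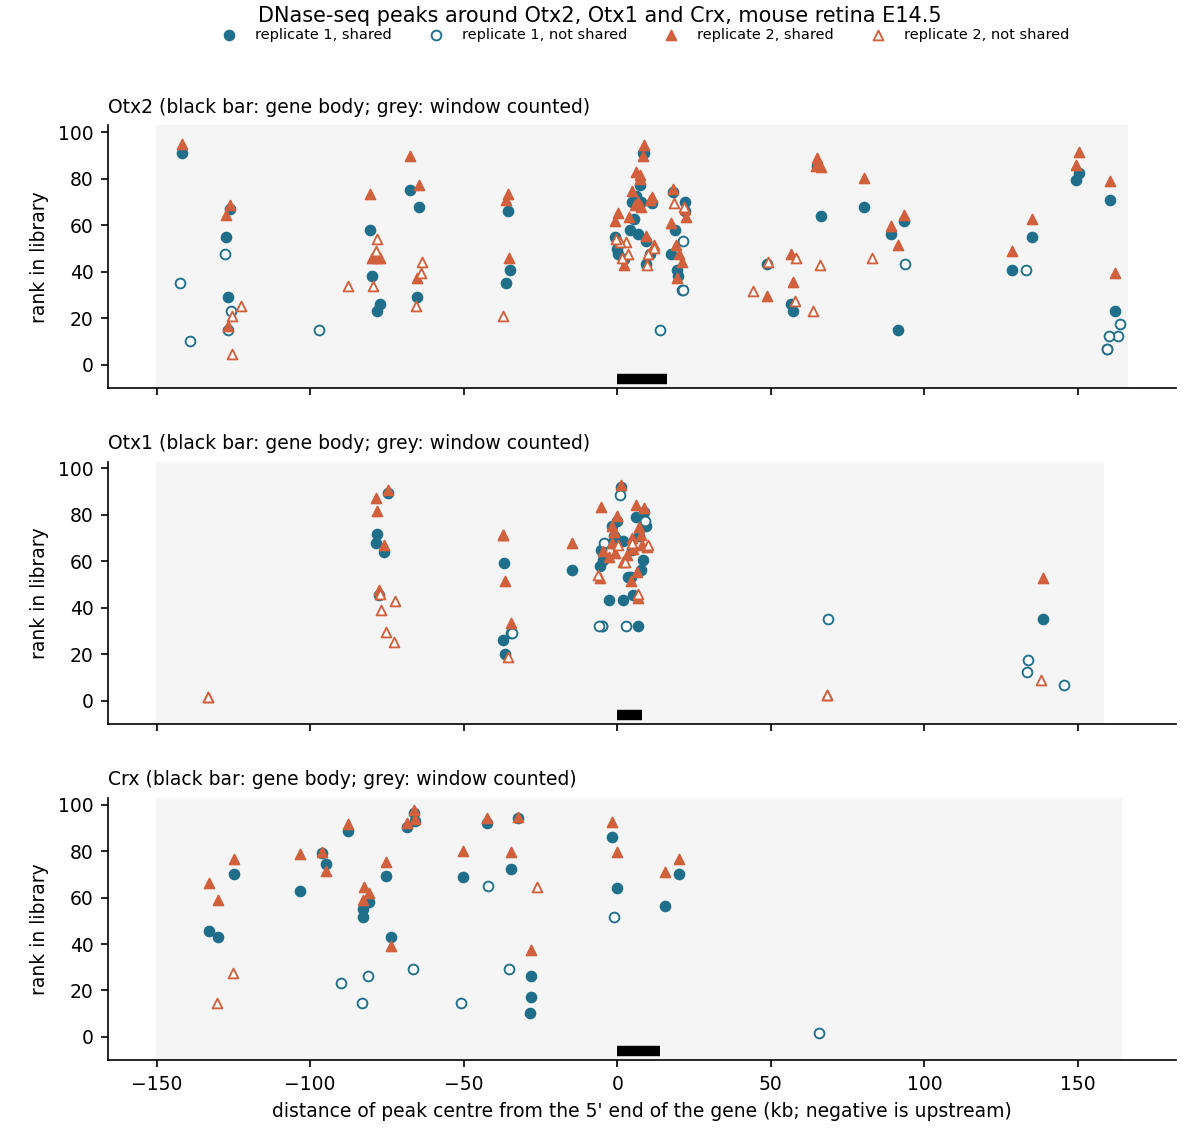
Each point is a peak in the window of Otx2, Otx1 or Crx, with the distance of its centre from the 5′ end of the gene in kb (horizontal axis, negative is upstream) and the percentile rank of its score in the library (vertical axis). Circles are replicate 1 and triangles replicate 2, filled where a peak of the other library overlaps and open where none does. Otx1 peaks sit mostly near the gene, and the Crx window is nearly empty downstream, with 3 and 2 peaks there.

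The files give each peak a whole-number score of unstated meaning, and each score was turned into a rank, the percentile among all peaks of its library with 100 the strongest. A promoter peak lies within 1000 bp of an annotated transcript start, and 69.7% and 71.3% of all protein-coding genes had at least 1. All 3 members had a promoter peak in both libraries, as did 68.8% of genes. Their strongest promoter peaks ranked 91.1 and 94.5 at Otx2, 92.1 and 92.8 at Otx1, and 63.98 and 79.4 at Crx. Otx2 and Otx1, at means of 92.8 ± 2.40 and 92.5 ± 0.528 (SD, n = 2 each), differed by less than the spread between the libraries. Crx, at 71.7 ± 10.9 (SD, n = 2), was below both in each library.

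Among genes with a promoter peak these ranks were not high. Otx2 ranked above 32.1% and 40.2% of such genes, Otx1 above 34.8% and 34.2%, and Crx above 7.87% and 15.6%. The promoters of Pax6, Six3, Six6, Rax and Lhx2 ranked from 94.8 to 99.8 in replicate 1 and from 97.3 to 99.9 in replicate 2, above all 3 members in the same library. Otx2 had 14 and 18 promoter peaks, Otx1 had 7 and 6, and Crx had 1 and 1.

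Otx2 has 11 annotated transcripts whose starts spread over most of the gene, and the peaks at its starts were unequal. The most upstream start, that of Otx2-210 at 48673819, had a strongest peak scored 32 and 62, ranks 54.9 and 65.5. These were different peaks, centred 872 bp upstream of the start in replicate 1 and 168 bp inside the gene in replicate 2. The 6 transcripts that start between 48667508 and 48667644 shared a peak scored 49 and 90, ranks 72.4 and 83.1. The starts of Otx2-203 and Otx2-201, at 48665521 and 48665106, had the strongest, scored 89 and 119. The last starts, of Otx2-204 and Otx2-206, ranked 69.5 and 72.2. In both libraries the internal starts of Otx2-203 and Otx2-201 thus ranked above the 5′ end of the gene. Peaks do not show which start is transcribed.

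Otx1 likewise had its strongest promoter peak at internal starts, by a smaller margin. The 5′ end at 22002897 (Otx1-202) ranked 88.5 and 79.4, and the starts of Otx1-203 and Otx1-201, at 22001710 and 22001615, ranked 92.1 and 92.8. In replicate 1 the peak counted at the 5′ end lay 906 bp inside the gene, and no peak of replicate 2 overlapped it. At Crx the 3 starts from 15879844 to 15879968 shared a single peak, scored 39 and 83. The 2 starts further inside the gene, of Crx-204 at 15872388 and Crx-202 at 15871402, had no peak within 1000 bp in either library.

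**Figure D3:**
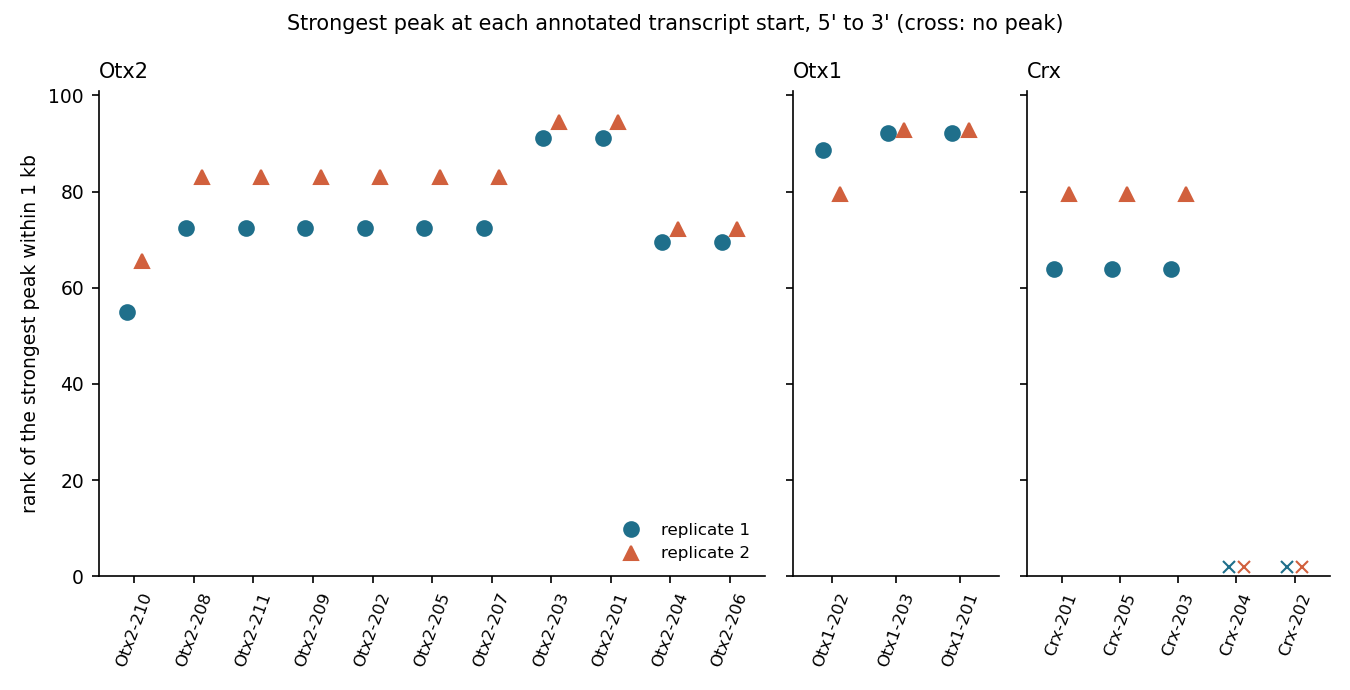
Percentile rank of the strongest peak within 1 kb of each annotated transcript start (vertical axis) for the transcripts of Otx2, Otx1 and Crx in order from 5′ to 3′ (horizontal axis). Circles are replicate 1, triangles replicate 2, and crosses mark starts without a peak. Starts close together share a peak, and the highest points are Otx2-203 and Otx2-201 at 91.1 and 94.5 and Otx1-203 and Otx1-201 at 92.1 and 92.8.

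Distal peaks, more than 1 kb from any annotated start, numbered 45 and 52 at Otx2, 39 and 45 at Otx1, and 27 and 20 at Crx. Their median rank was 40.7 and 46.0 at Otx2, close to the 43.2 and 44.4 of all distal peaks. Otx1, at 56.5 and 61.8, and Crx, at 51.5 and 71.2, were above the value of all distal peaks. So were the 5 comparison loci, at 48.7 to 62.9 in replicate 1 and 56.5 to 66.3 in replicate 2, and Otx2 was below all 5 in both. Beyond 10 kb from any start the mean of Otx1 over the libraries was 42.4, against 59.1 ± 3.78 (SD, n = 2) for all of its distal peaks. Peaks of the top score decile numbered 3 of 70 and 3 of 83 at Otx2 (4.29% and 3.61%), 1 of 46 and 2 of 51 at Otx1 (2.17% and 3.92%), and 5 of 35 and 7 of 27 at Crx (14.3% and 25.9%), against 9.95% and 9.84% of all peaks. None of the Crx window's 5 and 7 lay at the Crx promoter. Promoters of other genes accounted for 3 and 5 of them, and 2 and 2 were distal. These promoters were those of Selenow and Nop53 in replicate 1, and those of Crxos, Selenow, Nop53 and Ehd2 in replicate 2. Among the comparison loci Rax, at 12.05% and 17.3%, and Six3, at 10.3% and 11.3%, were also above the genome-wide share. Pax6, at 8.16% and 15.2%, was above it in replicate 2 only, and Six6 and Lhx2 were below it in both.

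The strongest distal peak of the Otx2 window that both libraries shared lay 142 kb upstream in an exon of the unclassified transcript Gm49152, with scores of 89 and 121 and ranks of 91.1 and 94.96. It is only just distal, at 1015 bp from the nearest annotated start. The next was the intergenic peak 64.9 kb downstream, printed above, with scores of 73 and 95 and ranks of 85.4 and 85.5. A peak 18.3 kb downstream, just past the 3′ end of Otx2, followed with scores of 52 and 76 and ranks of 74.4 and 75.4. The other 2 of the top 5 lay 161 kb downstream in an exon of Tmem260, with ranks of 71.0 and 78.9, and 80.3 kb downstream, with ranks of 67.8 and 80.5. The last of these holds the OTX core at 48593493.

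Around Otx1 the strongest shared distal peak lay 74.5 kb upstream in an intron of Ehbp1, a gene for an endocytic adaptor protein, with scores of 83 and 107 and ranks of 89.2 and 90.8. Ehbp1 introns and exons overlapped 18 and 22 of the window's peaks, and a second Ehbp1 intron peak 78.2 kb upstream ranked 71.7 and 81.6. The other 3 of the top 5 were close to Otx1. They lay 8.79 kb downstream with ranks of 81.2 and 83.1, 6.03 kb downstream in an Otx1 exon with ranks of 79.1 and 84.1, and 1.85 kb upstream with ranks of 75.1 and 75.4. The longest stretch without a peak in either library, 64.8 kb, lay downstream of the gene. The far downstream end overlaps Wdpcp, a gene needed for cilia, to which 4 and 2 distal peaks were nearest.

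At Crx the 5 strongest shared distal peaks were all upstream and all held the CTCF core. CTCF is the zinc-finger protein that anchors chromatin loops and insulators. The first lay 32.4 kb upstream, between genes, with scores of 102 and 120 and ranks of 94.03 and 94.7. The second, in an exon of Ehd2 68.6 kb upstream, ranked 90.2 and 92.2, and the other 3 ranked 71.5 to 79.1 in the lower library. Closest to Crx among the distal peaks both libraries shared were 2 downstream peaks. They lay 15.7 kb downstream with scores of 33 and 69, ranks 56.5 and 70.8, and 20.1 kb downstream with scores of 46 and 78, ranks 70.2 and 76.6. The nearer one holds the OTX core at 15864305 in both libraries.

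The OTX core TAATCC, searched on both strands, was found in 8 of 45 distal peaks of the Otx2 window in replicate 1 (17.8%, exact 95% interval 8.002 to 32.1) and in 5 of 52 in replicate 2 (9.62%, 3.20 to 21.03). All distal peaks held it in 5.79% and 6.39% of cases. Otx1 had it in 2 of 39 and 4 of 45 peaks, or 5.13% and 8.89%, and Crx in 2 of 27 and 2 of 20, or 7.41% and 10%. The intervals at Otx1 and Crx and that of replicate 2 at Otx2 include the genome-wide shares, and that of replicate 1 at Otx2 does not. The intervals, by the Clopper-Pearson method, cover counting error only. Among the comparison loci the shares were 14.0% and 14.8% at Rax and 7.25% and 9.33% at Pax6, above those of all distal peaks. They were below them at Six3 (2.25% and 2.61%), Six6 (4.48% and 3.95%) and Lhx2 (3.70% and 2.86%). A share of the size seen at Otx2 was thus met at Rax but not at Six3, Six6 or Lhx2. No distal peak of the 3 windows held the core 2 times or more, against 0.300% and 0.363% of all distal peaks.

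Of the 31 distal Otx2 peaks of replicate 1 that replicate 2 shared, 5 held the core, at 80.3, 93.2, 56.6 and 2.21 kb downstream and 64.5 kb upstream. The core also lay inside the overlapping peak of replicate 2 at 3 of them, those 80.3, 93.2 and 56.6 kb downstream. At Otx1 the peaks 76.1 and 34.6 kb upstream, both in Ehbp1 introns, held it in both libraries.

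The single Crx promoter peak held TAATCC 2 times in both libraries, at 15879971 and 15880044, 73 bases apart and on the plus strand, which is the template strand of Crx. The first match lies 3 bases upstream of the annotated 5′ end of Crx. Of all promoter peaks, 0.156% and 0.191% held 2 or more matches, and 3.53% and 3.88% held at least 1. Counted by gene, 0.373% and 0.505% of the protein-coding genes with a promoter peak had 2 or more in 1 peak. No promoter peak of Otx1 held the core in either library, and at Otx2 it was in 1 of 18 in replicate 2 and in none of 14 in replicate 1. A match is a run of letters and not a measured binding site.

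The CTCF core was in 9 of 27 and 7 of 20 distal peaks of the Crx window, or 33.3% (16.5 to 54.0) and 35.0% (15.4 to 59.2). Over all distal peaks the shares were 9.74% and 8.29%, below both intervals. These intervals treat the neighbouring peaks of a window as independent, and both libraries sample the same sites. At Otx2 it was in 0 of 45 and 1 of 52, and at Otx1 in 0 of 39 and 1 of 45. The homeodomain core TAATTA, which many LIM and paired-type factors bind, showed another order. It was in 13.3% and 19.2% of distal peaks at Otx2, in 2.56% and 13.3% at Otx1, and in none of the 27 and 20 at Crx, against 5.77% and 7.17% of all distal peaks. At Otx2 the E-box CAGCTG was in 15.6% and 15.4% of distal peaks, the E-box CAGATG in 15.6% and 19.2%, and the SOX core ACAAT in 26.7% and 26.9%. At Otx1 and Crx the shares of these 3 ran from 5.0 to 31.1%. Over all distal peaks they were 14.7, 16.4 and 23.6% in replicate 1 and 15.2, 17.0 and 24.8% in replicate 2.

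**Figure D4:**
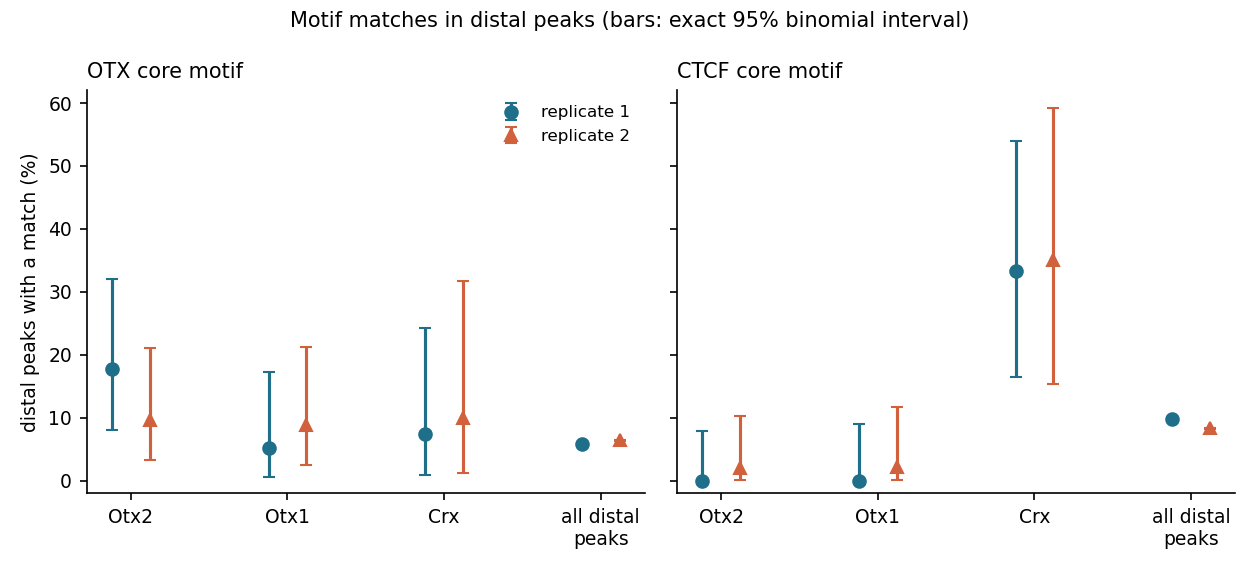
Share of distal peaks with a match (vertical axis, %) for the OTX core (left) and the CTCF core (right) in the windows of Otx2, Otx1 and Crx and over all distal peaks (horizontal axis), with circles for replicate 1 and triangles for replicate 2. Bars are exact 95% binomial intervals. In the right panel Crx stands at 33.3% and 35.0%, against 9.74% and 8.29% of all distal peaks.

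When all peaks were counted, the share found in both libraries was higher at the members than in the genome in replicate 2. In replicate 1 it was slightly higher at Otx2 and close to that of the genome at Otx1 and Crx. Among stronger peaks it was lower than in the genome at Otx1 in both libraries, at Otx2 in replicate 2 and at Crx in replicate 1. A peak counts as shared where a peak of the other library overlaps it by at least 1 bp. At Otx2, 54 of 70 and 54 of 83 peaks were shared (77.1% and 65.1%), at Otx1 34 of 46 and 34 of 51 (73.9% and 66.7%), and at Crx 26 of 35 and 24 of 27 (74.3% and 88.9%). Over all peaks the shares were 73.1% and 53.9%. Among peaks scored at or above the library median, 97.1% and 74.5% were shared at Otx2, 89.3% and 69.4% at Otx1, and 90.9% and 87.0% at Crx, against 93.3% and 83.8% of all such peaks. At Crx, 3 overlapping peaks of replicate 1 about 28.2 kb upstream met 1 peak of replicate 2, so the shared counts differ. Shared peaks mostly ranked higher in replicate 2, in 46 of 54 at Otx2, 29 of 34 at Otx1 and 24 of 26 at Crx, as did 78.4% of all shared peaks.

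Some peaks seen in 1 library lay in a hotspot of the other. This held for 5 of 16 and 5 of 29 such peaks at Otx2, 6 of 12 and 5 of 17 at Otx1, and 3 of 9 and 0 of 3 at Crx, against 34.7% and 10.3% of all unshared peaks. Whether or not they lay in a hotspot of the other library, the highest ranked unshared peak was the Otx1 promoter peak 906 bp inside the gene, with a score of 81 and a rank of 88.5 in replicate 1. In the Otx2 window the highest unshared ranks were 53.3 in replicate 1, beside the small nuclear RNA gene Gm23469, and 69.4 in replicate 2, 18.6 kb downstream. In the Crx window they were 65.0 in replicate 1, at the Selenow promoter, and 64.6 in replicate 2, at the pseudogene Ass-ps1, outside the hotspots of replicate 1.

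Promoters of genes known to act with the family were read from lists compiled from textbook roles, without a test between lists. Over all protein-coding genes, 69.7% and 71.3% had a promoter peak, and the median rank of the strongest one per gene was 94.98 and 95.9. Of 16 factors that act upstream of Otx2 or in progenitors, all 16 had a promoter peak in both libraries, with median ranks of 97.4 and 97.9, above those medians. Of 9 photoreceptor precursor factors 8 and 9 had one, with median ranks of 91.8 and 95.9, the first below the median of all genes and the second level with it. Nr2e3, the nuclear receptor that represses cone genes in rods, was the exception, with no peak in replicate 1 and rank 50.3 in replicate 2. Nrl, which directs rod fate, ranked 75.7 and 87.4, and Prdm1, which holds precursors in the photoreceptor fate, 91.6 and 95.9.

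Of 26 photoreceptor effector genes that Crx is known to regulate, 16 and 18 had a promoter peak, 61.5% and 69.2% against 69.7% and 71.3% of all genes. The median rank of the strongest peak per gene was 43.1 and 55.9, against 94.98 and 95.9 over all genes with one. Opn1sw, the short-wave cone opsin, ranked 29.3 and 44.4. Gnat1, the rod transducin alpha subunit, ranked 94.98 and 96.6, and Abca4, a retinoid transporter of outer segments, 92.1 and 94.2. Among the 8 genes without a peak in either library were Opn1mw, Pde6a, Pde6b, Pde6h, Rcvrn, Rp1 and Samd7. The OTX core lay in a promoter peak of 7 of the 16 and 7 of the 18, or 43.8% and 38.9%, against 8.15% and 10.1% of all genes with a promoter peak. Shares above those of all genes were also met in other lists, with 3 of 8 and 3 of 8 retina markers and 2 of 7 and 2 of 6 bipolar genes. The precursor factors had 2 of 8 and 3 of 9, and the upstream and progenitor factors 2 of 16 and 4 of 16. None of the 5 pineal, 6 related homeodomain and 7 telencephalon genes had it in either library. Pigment epithelium genes had it in 0 of 7 and 2 of 9. These lists overlap: the 3 retina markers with the core, Rax, Pax6 and Isl1, are counted again among the upstream or the bipolar genes. The precursor factors with the core, among them Thrb and Rxrg, are in no other list. Shares above those of all genes were thus met outside the effector genes, though theirs was the highest of the lists, and the counts are small. Among the effector genes the core was there in both libraries at Pde6g, Sag, Cnga1, Guca1a, Abca4 and Samd11, at Gnat1 in replicate 1 and at Rbp3 in replicate 2.

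**Figure D5:**
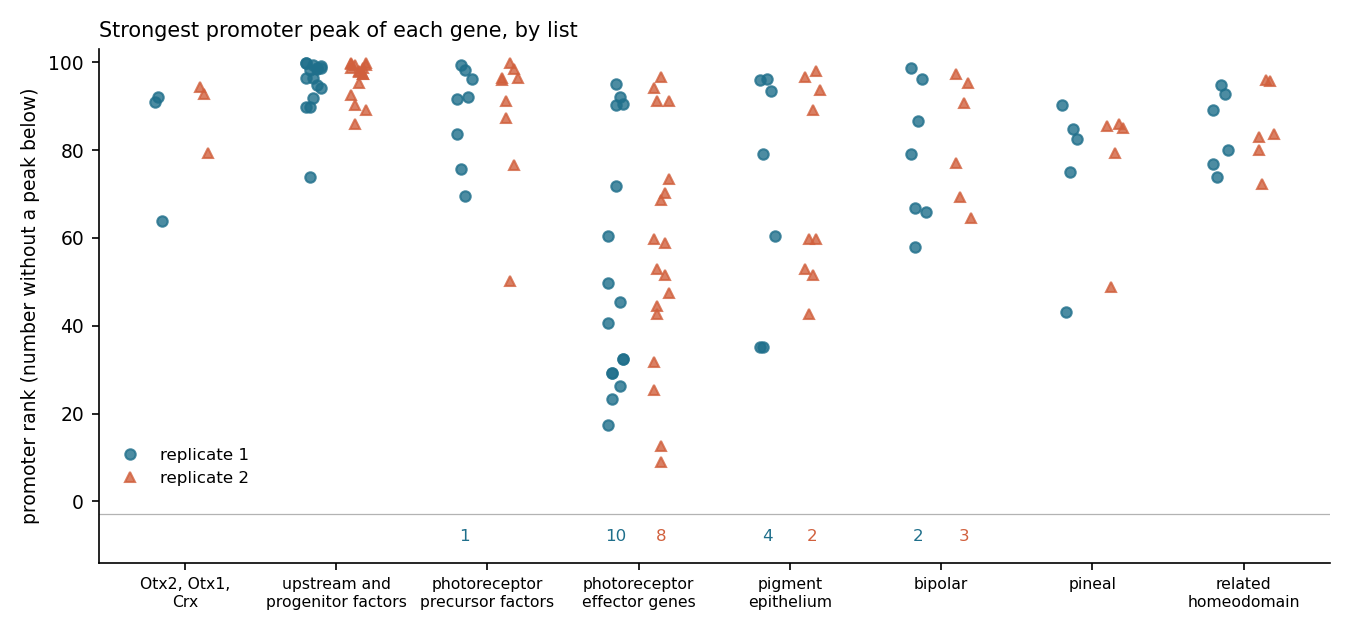
Percentile rank of the strongest promoter peak of each gene (vertical axis) for Otx2, Otx1 and Crx and for 7 gene lists (horizontal axis), with circles for replicate 1 and triangles for replicate 2. Numbers below the line count genes without a promoter peak. The photoreceptor effector genes spread to the lowest ranks and have 10 and 8 genes without a peak.

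Genes of the later and extra-retinal programmes of the family had a promoter peak about as often as all genes did, at 69.7% and 71.3%, or in small lists without exception. Of 9 bipolar genes 7 and 6 had one (77.8% and 66.7%), with median ranks of 79.1 and 84.0 and none at Cabp5 and Pcp2, which are made in mature bipolar cells. Vsx1, a bipolar homeobox gene, ranked 79.1 and 77.2 and held the OTX core in both libraries. Of 11 pigment epithelium genes 7 and 9 had one (63.6% and 81.8%), with median ranks of 79.1 and 59.8. Of 5 pineal genes 5 and 5 had one, with median ranks of 82.7 and 85.1. The 6 related homeodomain genes, among them Gsc, all had one in both libraries, with median ranks of 84.7 and 83.3. All of these median ranks were below the 94.98 and 95.9 of all genes with a promoter peak.

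Whole retina can carry neighbouring tissue, and markers of other tissues were read the same way, beside the 69.7% and 71.3% of all genes. All 8 retina markers had a promoter peak in both libraries, with Pax6 at 98.3 and 99.3. Of 10 pigment epithelium markers 6 and 8 had one, close to the share of all genes, ranked 35.2 to 96.1 and 42.8 to 98.0, with Pmel, a melanosome protein, at 96.1 and 98.0 and none at Tyr and Rpe65. Of 8 lens markers 3 and 4 had one, ranked 32.3 to 88.9 and 14.7 to 86.9, with none at the crystallin genes Cryaa, Cryab, Cryba4 and Crygs. All 7 telencephalon markers had one, ranked 71.7 to 95.9 and 72.2 to 96.8. Otx2 is active in pigment epithelium and Otx1 and Otx2 in forebrain, and the part of such cells in their peaks was not tested. In whole tissue, a site open in few cells and a site weakly open in many cannot be told apart.

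The windows end where the counting rule ends them. The peaks just inside the window edges of the 3 genes ranked from 1.77 to 94.96 and those just outside from 0.227 to 82.2. At Otx2 the last peaks before the upstream edge lay 7.79 and 8.31 kb inside it with ranks of 35.2 and 94.96, and the first beyond it 29.3 and 29.4 kb outside with ranks of 49.7 and 51.7.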

How the data were processed

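DNase-seq was done on 2 biological replicates of embryonic mouse retina. Peaks and hotspots were called by the authors in each library on its own on mm10, according to the file lists deposited with them. Which aligner, peak caller and filters were used is not given in the sources. The score of each peak, as deposited, is a whole number whose meaning the authors do not state (in 20002 and 17097 peaks it is written with a decimal point), and it was used only as a rank within its library. The deposited hotspot lists give a −log10 false discovery rate, with a ceiling of 100. The read depth is unknown, so no detection limit was computed. No p-value could be computed, since there is 1 group.

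Exact duplicate peak lines were removed. Genes and transcript starts came from GENCODE M21 on GRCm38, the assembly of mm10. Peaks overlapping each gene body plus 150 kb were counted, with 50 kb as an alternative. Peaks within 1000 bp of a start were promoter peaks and those beyond 1 kb of every start distal. Each distal peak was given to the nearest protein-coding start, whether or not it acts on that gene. Motifs were matched as exact letters on both strands inside each peak. Shares carry exact Clopper-Pearson 95% intervals (scipy 1.17.1, numpy 2.4.6, pandas 2.3.3, Python 3.11.15). Interval overlaps were tested on simulated data.

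The members, gene lists, motifs and tests were chosen with earlier results of these data known. Named by rule were every transcript start of the members, the 5 shared distal peaks with the highest lower rank, the 3 highest ranked unshared peaks per library (the text names a selection) and neighbouring protein-coding genes, Tmem260, Wdpcp and Ehbp1 without a promoter rank since no start of theirs lies in the windows. Other peaks with the OTX core and other genes of the lists were named after their values were seen, as were the printed sequences. Each replicate was left out in turn, and the other alternatives are in the closing section. Values of some list members are not reported here.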

Additional observations from a re-analysis of the deposited data

How the results depend on the processing

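The 3 genes gave 18 results. Apart from leaving out a library, they were tried under 48 alternatives, of which 28 moved by less than the spread between the libraries and 20 by more. With 50 kb on either side the density was 36.6 peaks per 100 kb at Otx2 and 32.8 at Otx1 (with Otx1 denser in replicate 1, 33.3 and 30.1), hotspot cover was 13.4% at both and 4.43% at Crx, and the share of distal Crx peaks with the OTX core was 15.6%. Among peaks scored at or above the library median the densities were 12.8, 10.4 and 7.17 at Otx2, Otx1 and Crx, and the shared percentage was 85.8 at Otx2 and 79.4 at Otx1, against 93.3 and 83.8 of all such peaks in the 2 libraries. An overlap of 75 bp gave 52.7% and 53.8% shared at Otx2 and Otx1. The distal median rank of Otx1 was 42.4 beyond 10 kb from any start. Hotspots at the ceiling covered 4.52%, 3.32% and 2.62% of the 3 windows. At the 5′ end alone the promoter rank was 60.2 at Otx2 and 84.0 at Otx1. Without peaks scored in decimal form, an alternative chosen after seeing the data, the Otx1 density was 14.4.

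Leaving out either library moved no density, rank, motif or hotspot value by more than 1 SD, which holds by construction for a mean of 2 libraries. The shared percentage needs both libraries and was not computed without one. No paired analysis was possible because the series has 1 group. The cause of each shift was not tested. Scores carry no stated unit, and peaks without a partner cannot be told apart from sites missed at lower depth.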
